A study of Homo sapiens with 12 samples.

Results

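The genes described here are 48 that act at the replication origin, at the replication fork and in the supply of DNA building blocks. They were listed by role: 8 genes of origin licensing, 14 of the CMG helicase and the factors that assemble and activate it, 9 of the replicative polymerases, 11 of clamp loading, DNA ligation and single-strand binding, and 6 of deoxynucleotide synthesis. All 48 were measured among 19775 genes on Affymetrix HG-U133 Plus 2.0 arrays. Where a gene had several probe sets, the one with the highest mean was read, and every gene had a mean log2 value above 6 (7.04 to 11.95).

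The arrays came from PC9, a line of human lung adenocarcinoma cells whose growth depends on mutant EGFR. Stable lines were compared: pre-miR-371 cells, made with a lentiviral construct for that miRNA hairpin, and GFP vector cells, made with a scrambled hairpin in a vector that expresses copGFP. Each was grown to high confluency and treated for 24 h with 2 µM erlotinib, an EGFR kinase inhibitor, or with the solvent DMSO. The 4 groups, pre-miR-371 with erlotinib, GFP vector with erlotinib, pre-miR-371 with DMSO and GFP vector with DMSO, held 3 arrays each. All cells of all groups were PC9 cells that carried a lentiviral insert, and only 1 stable line of each kind was used, so the hairpin cannot be told apart from other differences between the lines. The paper describes its replicates in general as biological and from independent experiments. The labels do not say that the 3 arrays of a group came from separate cultures. The p-values thus measure the spread between these arrays, which may be technical.

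The hairpin gives 2 mature miRNAs, whose RefSeq sequences (GRCh38.p14, chromosome 19, plus strand) are shown because they are what the lines were made to differ in. Bases 2 to 8, the seed that pairs with target RNAs, are in capitals, and the 2 seeds differ. The levels of these miRNAs were not analysed here.
hsa-miR-371a-3p: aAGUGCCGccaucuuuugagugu
hsa-miR-371a-5p: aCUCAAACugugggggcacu

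Before a cell copies its DNA, the origin recognition complex (ORC), CDC6 and CDT1 load the MCM2-7 ring onto origins, a step called licensing. The kinase CDC7 with its partner DBF4 then helps to add CDC45 and the GINS complex to the ring, and MCM10 helps to activate the resulting helicase. Polymerases, the sliding clamp PCNA and a supply of deoxynucleotides follow behind the helicase. Many of these genes are known to be transcribed under E2F factors as cells enter the cycle and to be low in resting cells. The arrays measure bulk RNA, so fewer cells in cycle and less RNA per cell cannot be told apart.

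Arrays had medians from 4.31 to 4.41, and within groups their mean correlation was 0.996 to 0.997. All 7 lung epithelial markers were high in every group (means of 10.42 to 13.66), all 4 leukocyte markers measured lay under 6, as did 5 of 6 fibroblast markers (highest group mean of the list 7.07). The summed log2 level of the 3 endothelial markers was 19.19 in erlotinib and 17.59 in DMSO in pre-miR-371 cells, and 19.32 in erlotinib and 17.43 in DMSO in GFP vector cells. That of the 4 leukocyte markers was 15.89 in erlotinib and 14.36 in DMSO in pre-miR-371 cells, and 15.75 in erlotinib and 14.44 in DMSO in GFP vector cells. The fibroblast sum was 25.57 in erlotinib and 25.83 in DMSO in pre-miR-371 cells, and 25.41 in erlotinib and 25.65 in DMSO in GFP vector cells. Of the endothelial and leukocyte markers PECAM1 and LYZ shifted most, only PECAM1 lay above 6, and their part in the results was not tested. DUSP6, a feedback gene of the MAPK pathway downstream of EGFR, had log2 fold changes in erlotinib of -5.999 in pre-miR-371 cells and -5.91 in GFP vector cells and served as a check of the treatment labels.

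Nearly the whole replication machinery was lower in erlotinib in both lines. Against DMSO, 44 of the 48 genes fell in pre-miR-371 cells, 1 rose and 3 did not pass the test, and 47 fell and 1 rose in GFP vector cells. A gene was counted as changed at a limma p-value under 0.05 after Benjamini-Hochberg adjustment over all 19775 genes. Among all of these, 22.2% were lower in pre-miR-371 cells and 23.4% in GFP vector cells. The paper's array methods, which also used limma, ask for a fold over 1.5 as well. With that limit, 29 of the 48 were lower in pre-miR-371 cells (9.33% of all genes) and 39 in GFP vector cells (11.7%). A fit of the 9650 genes averaging at least 6 gave 3841 lower in pre-miR-371 cells and 4040 in GFP vector cells, without the fold limit. The median log2 fold change of the 48 was -0.69 in pre-miR-371 cells, or 62.1% of the DMSO level, and -1.14 in GFP vector cells, or 45.5%, against -0.03 in pre-miR-371 cells and 0.003 in GFP vector cells over all genes. The single riser in both lines was RPA3, the smallest subunit of the single-strand binding protein RPA.

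**Figure D1:**
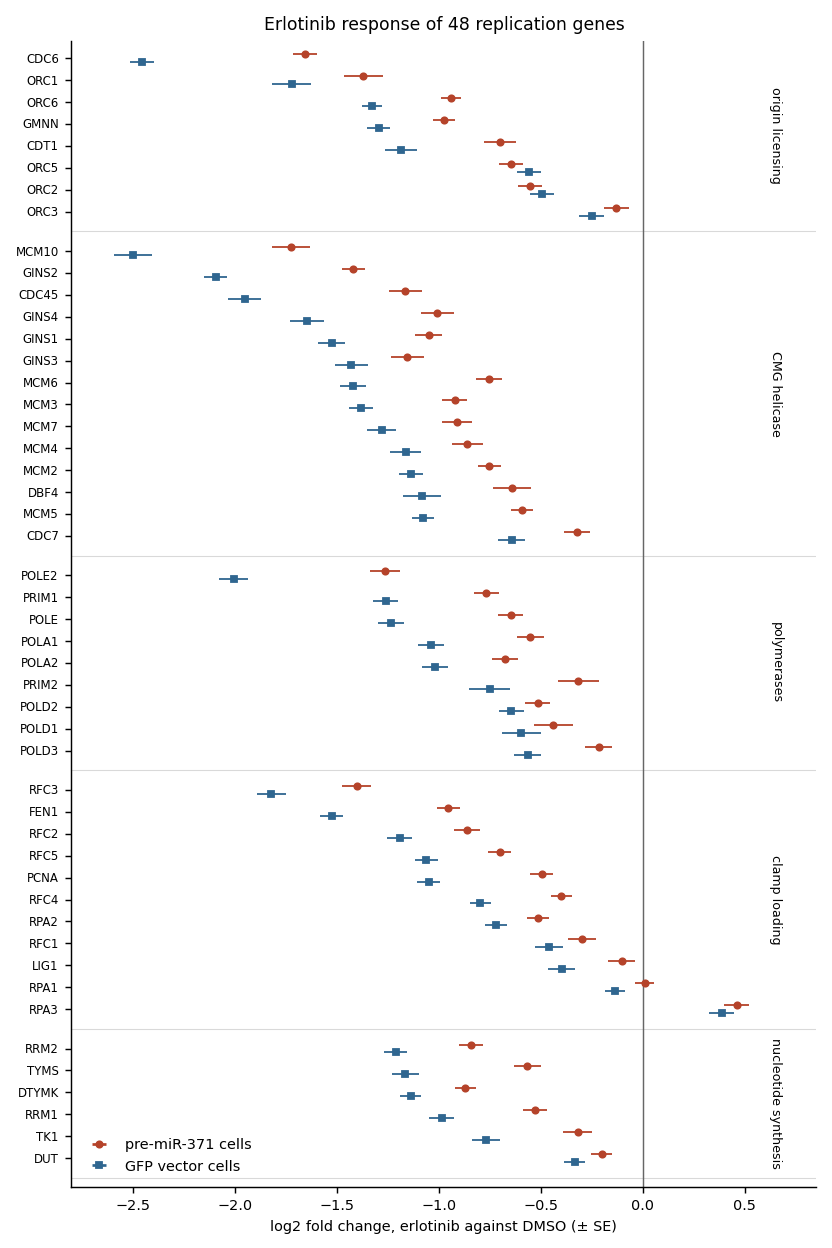
Log2 fold change of erlotinib against DMSO (x axis, ± SE, 3 arrays per group) for each of the 48 genes, grouped by role, in pre-miR-371 cells (circles, upper of each pair) and GFP vector cells (squares). Most pairs lie left of 0 with the square further left, and RPA3 lies right of 0 in both lines.

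The 2 responses share no array. Over the 48 genes, which are not independent replicates and all of which come from the same 12 arrays, they correlated at a Pearson r of 0.958. MCM10, CDC6 and GINS2 had the lowest fold changes in each line, and RPA3, RPA1, LIG1 and ORC3 the highest in pre-miR-371 cells.

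Origin licensing had a median log2 fold change of -0.82 in pre-miR-371 cells, with 7 of its 8 genes lower, and of -1.24 in GFP vector cells, with all 8 lower. The group was not uniform. CDC6, the ATPase that brings the MCM ring to ORC, fell most. CDC6 had log2 expression values of 7.39, 7.33 and 7.37 on the erlotinib arrays of pre-miR-371 cells, against 9.07, 9.02 and 8.97 in DMSO, and of 6.79, 6.64 and 6.61 on the erlotinib arrays of GFP vector cells, against 9.17, 9.12 and 9.13 in DMSO. The treated and untreated arrays did not overlap in either line, and the treated pre-miR-371 arrays all lay above the treated GFP vector arrays. Its log2 fold change was -1.66 (SE 0.06, adjusted p = 4.86e-10) in pre-miR-371 cells, 31.7% of the DMSO level, and -2.45 (SE 0.06, adjusted p = 1.58e-11) in GFP vector cells, 18.2%.

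Among the subunits of ORC, which marks origins, ORC1 fell most, with log2 fold changes of -1.37 in pre-miR-371 cells and -1.72 in GFP vector cells. ORC6 had -0.94 in pre-miR-371 cells and -1.33 in GFP vector cells. The other subunits had smaller fold changes: ORC2 had -0.55 in pre-miR-371 cells and -0.49 in GFP vector cells, ORC5 had -0.65 in pre-miR-371 cells and -0.56 in GFP vector cells and ORC4, which was not among the 48, had -0.28 in pre-miR-371 cells and -0.26 in GFP vector cells. ORC3 was lower in GFP vector cells (-0.25) and did not pass the test in pre-miR-371 cells (-0.13, adjusted p = 0.108), where it did pass without erlotinib replicate 2 (-0.19). CDT1, the loader that works with CDC6, had -0.70 in pre-miR-371 cells and -1.19 in GFP vector cells, and GMNN, which encodes the CDT1 inhibitor geminin, had -0.97 in pre-miR-371 cells and -1.29 in GFP vector cells. The loader and its inhibitor fell together. The probe sets of CDT1 and ORC6 are of a type (names ending in x_at) that can also bind other transcripts, as are those of RFC1 and DUT. Probe sets with names ending in s_at, among them those of CDC6, MCM10 and GINS2, can match several transcripts too.

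The CMG helicase group had the lowest median of the 5 roles in both lines. All 14 genes fell in both lines, with medians of -0.92 in pre-miR-371 cells and -1.40 in GFP vector cells. MCM10, a factor needed for helicase activation, had the lowest values. MCM10 had log2 expression values of 7.33, 7.29 and 7.09 on the erlotinib arrays of pre-miR-371 cells, against 9.01, 8.93 and 8.94 in DMSO, and of 6.67, 6.46 and 6.57 on the erlotinib arrays of GFP vector cells, against 9.24, 9.05 and 8.92 in DMSO. In each line the treated arrays lay below the untreated ones by more than 1 log2 unit. The log2 fold change was -1.72 (SE 0.09) in pre-miR-371 cells and -2.50 (SE 0.09) in GFP vector cells. CDC45, the helicase subunit that joins the ring with GINS, had -1.17 in pre-miR-371 cells and -1.95 in GFP vector cells.

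GINS is a complex of 4 subunits, and all 4 fell, with log2 fold changes of -1.01 to -1.42 in pre-miR-371 cells and of -1.43 to -2.09 in GFP vector cells. GINS2 fell most. GINS2 had log2 expression values of 8.75, 8.73 and 8.62 on the erlotinib arrays of pre-miR-371 cells, against 10.12, 10.16 and 10.08 in DMSO, and of 8.49, 8.51 and 8.42 on the erlotinib arrays of GFP vector cells, against 10.59, 10.59 and 10.52 in DMSO. No arrays of different groups overlapped, and the untreated pre-miR-371 arrays lay below the untreated GFP vector arrays. The 6 subunits of the MCM2-7 ring, which unwinds the DNA, moved as a tight block, with log2 fold changes between -0.59 (MCM5) and -0.92 (MCM3) in pre-miR-371 cells and between -1.08 (MCM5) and -1.42 (MCM6) in GFP vector cells. MCM6 had log2 expression values of 10.29, 10.37 and 10.40 on the erlotinib arrays of pre-miR-371 cells, against 11.13, 10.998 and 11.19 in DMSO, and of 9.87, 9.74 and 9.81 on the erlotinib arrays of GFP vector cells, against 11.25, 11.22 and 11.22 in DMSO. The untreated MCM6 arrays of pre-miR-371 cells all lay slightly below those of GFP vector cells. This difference did not pass the test (-0.12, adjusted p = 0.262 by limma). Treated pre-miR-371 arrays of MCM6 lay lower, and treated GFP vector arrays lowest. CDC7, the kinase that fires origins, had the smallest change of the 14 in both lines (-0.32 in pre-miR-371 cells and -0.64 in GFP vector cells), and its partner DBF4 had -0.64 in pre-miR-371 cells and -1.08 in GFP vector cells.

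**Figure D2:**
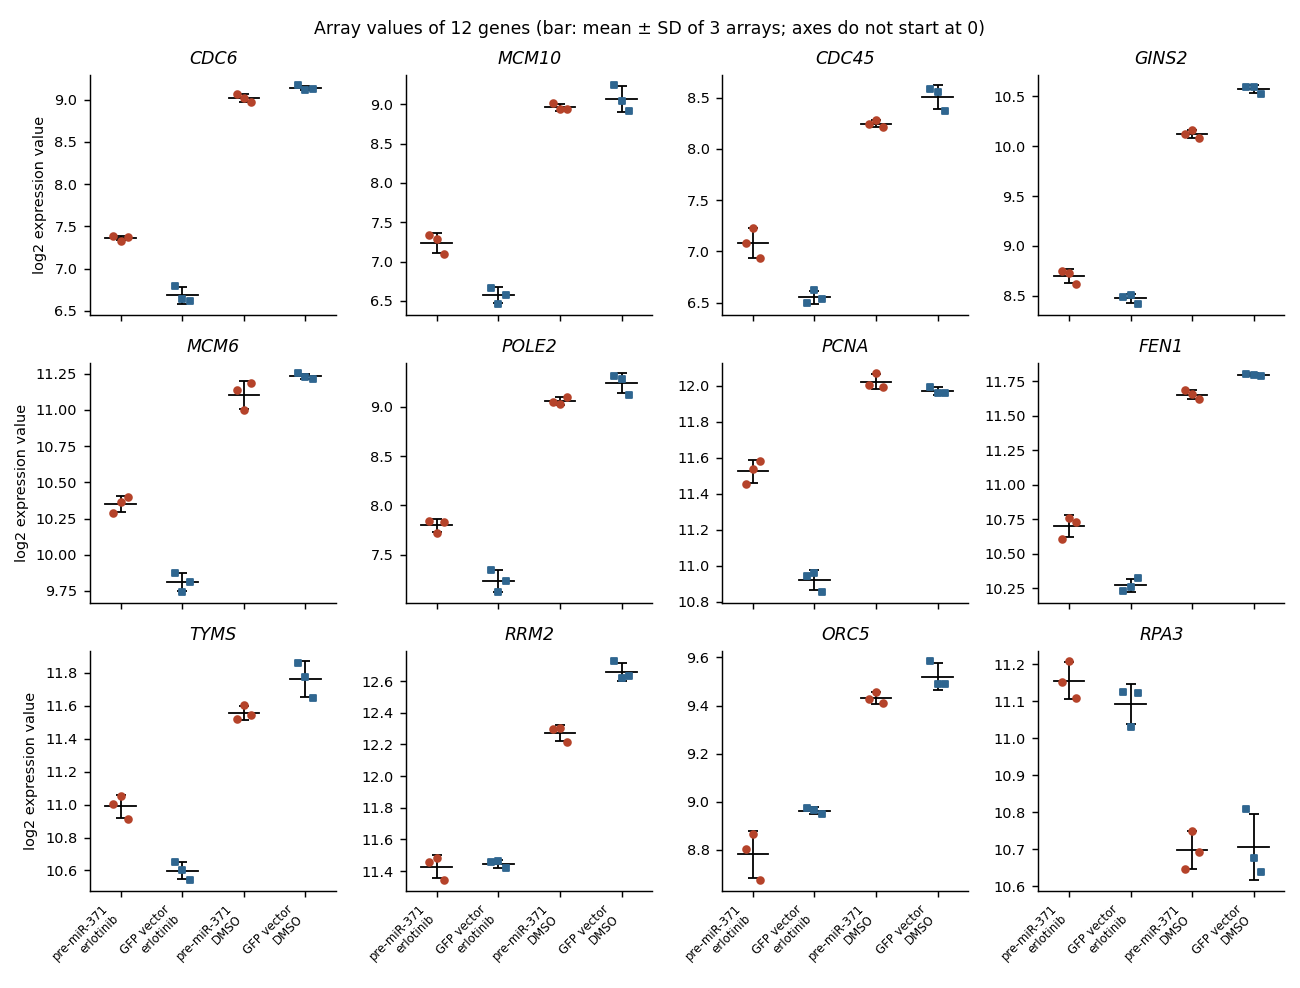
Log2 expression values (y axis, which does not start at 0) of 12 of the genes on each array (points), with the mean and SD of 3 arrays, in the order pre-miR-371 erlotinib, GFP vector erlotinib, pre-miR-371 DMSO and GFP vector DMSO. For CDC6 and PCNA the treated pre-miR-371 arrays lie above the treated GFP vector arrays, the RRM2 arrays of the lines are apart only in DMSO, and RPA3 is higher in erlotinib.

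All 9 polymerase genes fell in both lines, with medians of -0.55 in pre-miR-371 cells and -1.02 in GFP vector cells. POLE2, the second subunit of polymerase epsilon, which copies the leading strand, fell furthest of the 9. POLE2 had log2 expression values of 7.84, 7.72 and 7.83 on the erlotinib arrays of pre-miR-371 cells, against 9.05, 9.03 and 9.10 in DMSO, and of 7.34, 7.13 and 7.23 on the erlotinib arrays of GFP vector cells, against 9.31, 9.28 and 9.12 in DMSO. Treated and untreated arrays were more than 1 log2 unit apart in each line. The log2 fold change was -1.26 (SE 0.07) in pre-miR-371 cells and -2.004 (SE 0.07) in GFP vector cells, and POLE, the catalytic subunit, had -0.65 in pre-miR-371 cells and -1.24 in GFP vector cells. POLD1, POLD2 and POLD3, subunits of the lagging strand polymerase delta, had -0.22 to -0.52 in pre-miR-371 cells and -0.57 to -0.65 in GFP vector cells. The 4 subunits of polymerase alpha and primase, which lay down primers (POLA1, POLA2, PRIM1 and PRIM2), had -0.32 to -0.77 in pre-miR-371 cells and -0.75 to -1.26 in GFP vector cells. The calls of PRIM2 and POLD3 in pre-miR-371 cells were the weakest of the group: PRIM2 (-0.32) was lost without DMSO replicate 2 or 3 or erlotinib replicate 2 of that line (-0.28, -0.26 and -0.27), and POLD3 (-0.22) without DMSO replicate 2 or erlotinib replicate 1 (-0.19 and -0.17).

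Clamp loading and strand-joining genes were the most mixed. Of these 11, 8 fell, 1 rose and 2 did not pass the test in pre-miR-371 cells (median -0.50), and 10 fell and 1 rose in GFP vector cells (median -0.80). PCNA, the sliding clamp that tethers polymerases to DNA, had a smaller fall in pre-miR-371 cells (difference 0.55, adjusted p = 0.0072). PCNA had log2 expression values of 11.46, 11.54 and 11.58 on the erlotinib arrays of pre-miR-371 cells, against 12.004, 12.07 and 11.99 in DMSO, and of 10.94, 10.96 and 10.86 on the erlotinib arrays of GFP vector cells, against 11.99, 11.96 and 11.96 in DMSO. The untreated arrays of the lines overlapped, whereas the treated arrays did not, and differed by 0.61 on the log2 scale. Its log2 fold change was -0.50 (SE 0.06) in pre-miR-371 cells, 70.9% of the DMSO level, and -1.05 (SE 0.06) in GFP vector cells, 48.3%.

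RFC loads the clamp. Its subunits had log2 fold changes from -0.30 (RFC1) to -1.40 (RFC3) in pre-miR-371 cells and from -0.46 (RFC1) to -1.82 (RFC3) in GFP vector cells. FEN1, the nuclease that trims Okazaki fragments, had -0.95 in pre-miR-371 cells and -1.52 in GFP vector cells. LIG1, the ligase that seals them, had -0.10 in pre-miR-371 cells, which did not pass the test (adjusted p = 0.238), and -0.40 in GFP vector cells (adjusted p = 0.00025). The 3 subunits of RPA, which coats single-stranded DNA, went different ways. RPA2 fell (-0.51 in pre-miR-371 cells and -0.72 in GFP vector cells). RPA1, the large subunit, had 0.01 in pre-miR-371 cells, which did not pass the test, and -0.14 in GFP vector cells (adjusted p = 0.0318), a call that was lost without GFP vector DMSO replicate 1 or 2 or erlotinib replicate 2 or 3 (-0.12 to -0.14). RPA3 had log2 expression values of 11.15, 11.21 and 11.11 on the erlotinib arrays of pre-miR-371 cells, against 10.65, 10.75 and 10.69 in DMSO, and of 11.12, 11.03 and 11.12 on the erlotinib arrays of GFP vector cells, against 10.81, 10.68 and 10.64 in DMSO. For RPA3 the treated arrays all lay above the untreated ones, with log2 fold changes of 0.46 (SE 0.06, adjusted p = 4.53e-05) in pre-miR-371 cells and 0.39 (SE 0.06, adjusted p = 0.000173) in GFP vector cells.

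All 6 genes of deoxynucleotide synthesis fell in both lines, with medians of -0.55 in pre-miR-371 cells and -1.06 in GFP vector cells. RRM1 and RRM2 are the subunits of ribonucleotide reductase, which makes deoxynucleotides from ribonucleotides. RRM2 had log2 expression values of 11.46, 11.48 and 11.35 on the erlotinib arrays of pre-miR-371 cells, against 12.30, 12.30 and 12.21 in DMSO, and of 11.46, 11.46 and 11.42 on the erlotinib arrays of GFP vector cells, against 12.72, 12.62 and 12.63 in DMSO. Treated RRM2 arrays of the 2 lines overlapped, and untreated arrays did not, the pre-miR-371 ones being lower. Its log2 fold change was -0.84 (SE 0.06) in pre-miR-371 cells and -1.21 (SE 0.06) in GFP vector cells. RRM1 had -0.53 in pre-miR-371 cells and -0.99 in GFP vector cells. TYMS, thymidylate synthase, lies on the route to thymidine nucleotides. TYMS had log2 expression values of 11.002, 11.05 and 10.92 on the erlotinib arrays of pre-miR-371 cells, against 11.52, 11.60 and 11.55 in DMSO, and of 10.65, 10.60 and 10.54 on the erlotinib arrays of GFP vector cells, against 11.86, 11.78 and 11.65 in DMSO. The 4 TYMS groups did not overlap, and its log2 fold change was -0.57 (SE 0.07) in pre-miR-371 cells and -1.16 (SE 0.07) in GFP vector cells. The kinases DTYMK and TK1 of the same route had -0.87 in pre-miR-371 cells and -1.14 in GFP vector cells for DTYMK and -0.32 in pre-miR-371 cells and -0.77 in GFP vector cells for TK1. On the probe sets used, DUT, the enzyme that removes dUTP, changed least of the 6 (-0.20 in pre-miR-371 cells and -0.33 in GFP vector cells). The 3 probe sets of DUT differed, and their range is given under the other observations.

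**Figure D3:**
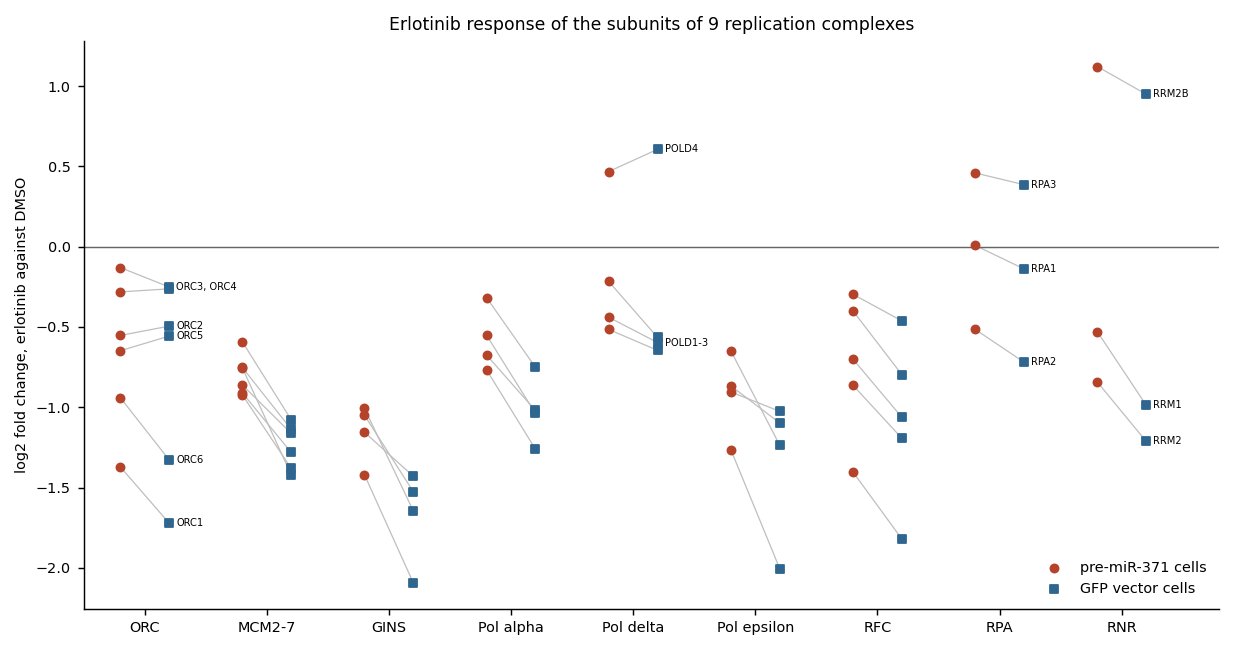
Log2 fold change of erlotinib against DMSO (y axis) for every subunit of 9 complexes, in pre-miR-371 cells (circles) and GFP vector cells (squares), with lines joining the same gene. The MCM2-7 and GINS subunits all lie below 0, while ORC subunits are spread out and POLD4, RPA3 and RRM2B lie above 0.

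When the complexes were completed with subunits outside the 48, some subunits ran against their partners. POLD4, the smallest subunit of polymerase delta, rose by 0.47 in pre-miR-371 cells and 0.61 in GFP vector cells (adjusted p = 0.000342 and 3.36e-05), while POLD1 to POLD3 fell. RRM2B, the form of the small reductase subunit that is known to be used outside S phase, rose by 1.12 in pre-miR-371 cells and 0.95 in GFP vector cells (adjusted p = 3.75e-06 and 1.39e-05), while RRM2 fell. POLE3 and POLE4 fell with the rest of polymerase epsilon (-0.90 in pre-miR-371 cells and -1.03 in GFP vector cells for POLE3, -0.87 in pre-miR-371 cells and -1.10 in GFP vector cells for POLE4).

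The next comparison asked whether the lines responded alike. The difference of responses, pre-miR-371 minus GFP vector, is positive where a gene fell less in pre-miR-371 cells. It passed the test in the positive direction for 23 of the 48 genes, where 1.44% of all genes did. It passed in the negative direction for none of the 48 (13 to 21 positive calls with each array left out). In a fit of only the 9650 genes with a mean of at least 6, 629 passed in the positive direction. The median difference was 0.39 over the 48 and -0.01 over all genes. It was above 0 for all but ORC2, at -0.06 (SE 0.08), and ORC5, at -0.09 (SE 0.08).

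CDC6 had the largest difference, 0.80 (SE 0.08, adjusted p = 0.00415), and those of CDC45 (0.79), MCM10 (0.77), POLE2 (0.74), GINS2 (0.67), MCM6 (0.67) and GINS4 (0.64) followed. The helicase group held 9 of the 23 calls, among them 4 of the MCM2-7 ring (MCM2, MCM3, MCM5 and MCM6) and 3 of the GINS subunits. The polymerases held 4 (POLA1, PRIM1, POLE and POLE2), clamp loading 4 (PCNA, RFC4, RFC5 and FEN1), nucleotide synthesis 4 (RRM1, RRM2, TYMS and TK1), and origin licensing 2 (CDC6 and ORC6). For the other 25 a p that missed the threshold does not show equal responses: CDT1, for one, had 0.49 (SE 0.11, adjusted p = 0.0505).

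How firm these calls were differed between genes. With each of the 12 arrays left out in turn, 12 of the 23 stayed past the test every time: CDC6, MCM5, MCM6, MCM10, CDC45, GINS2, PRIM1, POLE, POLE2, PCNA, FEN1 and TYMS. The other 11 were lost without at least 1 array. RFC5 was lost without any of them (adjusted p = 0.0535 to 0.111 by limma), RRM2 without 11, MCM2 and TK1 without 10 each. The number of calls was 15 without GFP vector DMSO replicate 2, 14 without pre-miR-371 DMSO replicate 1 and 13 without pre-miR-371 DMSO replicate 2.

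The same arrays can be read line against line within each treatment. In DMSO 4 of the 48 genes were lower in pre-miR-371 cells, where 3.64% of all genes were, and 1 was higher. The median log2 fold change of the 48 was -0.08 (all genes -0.001). Over the 9650 genes with a mean of at least 6, a level that all 48 reached, the median was -0.06. In a fit of only these genes, 1639 were lower in pre-miR-371 cells. The count of the 48 in that fit is given with the processing alternatives. The values of 37 of the 48 were below 0, and for 24 all pre-miR-371 arrays lay below all GFP vector arrays, as for 17.7% of all genes. The shares of 3.64% and 17.7% cover all genes, also those with a mean under 6. GINS2 had -0.45 (SE 0.06, adjusted p = 0.00184) and RRM2 -0.39 (SE 0.06, adjusted p = 0.00448). POLA1 had -0.34 (SE 0.07, adjusted p = 0.0158) and POLE -0.26 (SE 0.06, adjusted p = 0.0398). GMNN was higher, 0.21 (SE 0.06, adjusted p = 0.0474), and lost that call without any one of the 12 arrays (adjusted p = 0.0551 to 0.152). POLA1 lost its call without pre-miR-371 DMSO replicate 2 or 3 (-0.34 and -0.31), which left 2 calls in each case, and POLE without 8 of the 12 arrays. Without GFP vector DMSO replicate 3, 6 genes were lower, with CDC45 (-0.32), MCM7 (-0.28) and TYMS (-0.26) gained.

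In erlotinib, of the 48 genes, 34 were higher in pre-miR-371 cells, where 6.5% of all genes were. None of the 48 was lower at the adjusted threshold. Their median log2 fold change was 0.34, or 126.3% of the GFP vector level (all genes -0.01). In a fit of only the 9650 genes with a mean of at least 6, 1448 were higher. CDC6 had 0.68 (SE 0.06, adjusted p = 9.33e-05), MCM10 0.67, DBF4 0.65, PRIM2 0.63 and PCNA 0.61 (SE 0.06, adjusted p = 0.000106). These 5 were the ones that also passed a fold of 1.5. By role, 11 of 14 helicase genes, 8 of 11 clamp loading genes, 6 of 9 polymerase genes, 5 of 6 nucleotide genes and 4 of 8 licensing genes were higher. GMNN (0.53) was higher in pre-miR-371 cells under both treatments, but its call in DMSO was lost whichever array was left out.

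Of the 14 that did not pass, RRM2 had -0.02 (SE 0.06, adjusted p = 0.882) in erlotinib on the probe set used, and its second probe set gave 0.33 (SE 0.07); the mean of both was 0.15 and passed the test (adjusted p = 0.045 by limma). ORC5 had the lowest value of the 48, -0.18 (SE 0.06, adjusted p = 0.0596). ORC2, ORC3, POLD1, POLD2, RPA3, RPA1 and GINS3 had values from 0.04 to 0.09 that did not pass the test. RFC1 (0.12), MCM4 (0.14), MCM7 (0.15), POLA1 (0.15) and ORC1 (0.23) had larger values that did not pass either. With each array left out, 26 of the 34 calls held every time, and those of GINS2, POLD3, RFC2, LIG1, RPA2, TK1, DTYMK and DUT were lost without at least 1 array. Calls were gained too. With GFP vector erlotinib replicate 3 left out, ORC1 was higher in pre-miR-371 cells (0.32, adjusted p = 0.0416 by limma). ORC5 passed as lower in pre-miR-371 cells when GFP vector DMSO replicate 1 (-0.18, adjusted p = 0.0488) or pre-miR-371 erlotinib replicate 2 (-0.22, adjusted p = 0.0499) was left out.

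**Figure D4:**
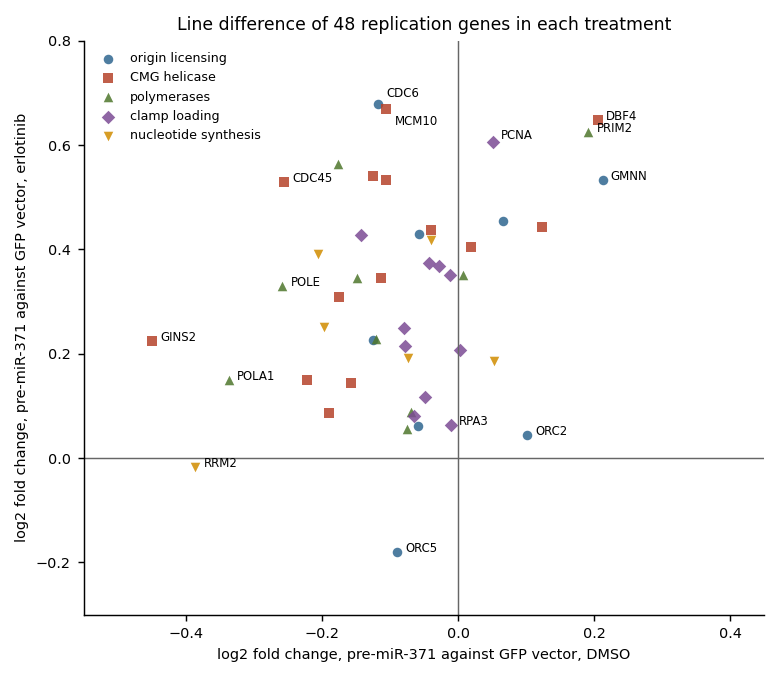
Log2 fold change of pre-miR-371 over GFP vector cells, in DMSO (x axis) and in erlotinib (y axis), for each of the 48 genes, with the symbol giving its role. Nearly all points lie above 0 on the y axis, up to 0.68 for CDC6, while on the x axis they lie around 0, from -0.45 for GINS2 to 0.21 for GMNN.

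Across these tests, 21 of the 23 genes with a difference of responses were higher in pre-miR-371 cells in erlotinib, and 4 were lower in DMSO. GINS2 and POLE passed both tests, RRM2 and POLA1 only the one in DMSO, and the other 19 only the one in erlotinib. The difference and the line contrasts use the same arrays, so these counts describe where the difference sat and are not separate evidence for it.

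Other replication genes were listed by role as well, and 42 were measured. In erlotinib 33 fell and 5 rose in pre-miR-371 cells and 35 fell and 4 rose in GFP vector cells, with medians of -0.57 in pre-miR-371 cells and -0.99 in GFP vector cells (of all genes, 22.2% fell and 24.8% rose in pre-miR-371 cells, and 23.4% fell and 26.5% rose in GFP vector cells). Nucleotide synthesis gave the lowest value with CTPS1, which makes CTP (-2.08 in pre-miR-371 cells and -2.48 in GFP vector cells), and NME1, a nucleoside diphosphate kinase, had -1.62 in pre-miR-371 cells and -1.97 in GFP vector cells. DSCC1, a subunit of an alternative clamp loader, had -1.56 in pre-miR-371 cells and -2.05 in GFP vector cells, and TIPIN, part of the fork protection complex, -1.56 in pre-miR-371 cells and -1.83 in GFP vector cells. SAMHD1, which breaks down deoxynucleotides, rose by 0.52 in pre-miR-371 cells and 0.42 in GFP vector cells. CHTF8, of the same clamp loader as DSCC1, rose by 0.35 in pre-miR-371 cells and 0.40 in GFP vector cells. SHMT1, a folate enzyme, passed the test in pre-miR-371 cells (0.19) and missed it in GFP vector cells (0.08). Its level was low, with group means of 4.35 to 4.61 near the array medians of 4.31 to 4.41.

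Between the lines, 9 of these 42 had a positive difference of responses that passed the test (1.44% of all genes), among them the helicase RECQL4 (0.46), the checkpoint mediator CLSPN (0.81), the MCM relative MCM8 (0.71) and the fork factor DONSON (0.55). In DMSO 7 were lower in pre-miR-371 cells (3.64% of all genes), with CTPS1 at -0.35 and CAD, which starts pyrimidine synthesis, at -0.40. In erlotinib 16 were higher in pre-miR-371 cells (6.5% of all genes) and 2 lower (9.46%). WDHD1, which links polymerase alpha to the helicase, had 0.61 and DCK, a salvage kinase for deoxynucleosides, 0.47, while POLD4 (-0.48) and IMPDH2 (-0.25), an enzyme of guanine nucleotide synthesis, were the lower ones.

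The promoters of the 48 genes were searched for the letters that E2F factors are known to bind. Many of these genes were already known to be transcribed under E2F factors, so matches were likely whatever the arrays showed. RefSeq promoters (GRCh38.p14, 250 bases before to 50 after the start) were matched for 42 of the 48; MCM4, MCM5, GINS4, POLD3, RPA2 and RPA3 were not matched. The words TTTCCCGC, TTTCGCGC, TTTGCCGC and TTTGGCGC were sought on both strands and can overlap each other. At least 1 was found in 18 of the 42 promoters (42.9%), against 908 of 27305 promoters (3.33%). The latter are all RefSeq promoters searched and are not limited to measured genes. The helicase group held them in 7 of 11, polymerases in 4 of 8, licensing in 3 of 8, clamp loading in 3 of 9 and nucleotide synthesis in 1 of 6, and the other replication genes in 5 of 34. CCAAT, sought in the same way, was in 23 of the 42 (54.8%), against 35.7% of all promoters.

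These 8 stretches show the letters in promoters of genes described above, with at least 1 from each role. Of those not yet given singly, MCM7 had log2 fold changes in erlotinib of -0.91 in pre-miR-371 cells and -1.28 in GFP vector cells, and POLA2 had -0.67 in pre-miR-371 cells and -1.02 in GFP vector cells. Each stretch is 100 bases long, ends 1 base before the start of the gene (61 bases before it for MCM6), runs in the direction of the gene, and has the E2F letters in capitals. They lie at chr16:88803689-88803788 (CDT1, plus strand), chr2:135876504-135876603 (MCM6, minus), chr7:100101398-100101497 (MCM7, minus), chr16:85688955-85689054 (GINS2, minus), chr11:65261862-65261961 (POLA2, plus), chr20:5126623-5126722 (PCNA, minus), chr13:33818049-33818148 (RFC3, plus) and chr18:657553-657652 (TYMS, plus). In MCM6 each of 2 runs of capitals holds 2 overlapping words, 1 per strand.
CDT1: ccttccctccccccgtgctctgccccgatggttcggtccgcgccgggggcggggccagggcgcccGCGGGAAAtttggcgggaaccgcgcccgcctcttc
MCM6: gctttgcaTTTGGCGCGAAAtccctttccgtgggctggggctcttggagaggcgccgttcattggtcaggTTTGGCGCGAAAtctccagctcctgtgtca
MCM7: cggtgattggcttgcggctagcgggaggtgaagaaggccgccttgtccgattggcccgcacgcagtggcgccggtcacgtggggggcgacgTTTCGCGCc
GINS2: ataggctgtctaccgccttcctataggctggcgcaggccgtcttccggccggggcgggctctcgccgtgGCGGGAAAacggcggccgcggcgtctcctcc
POLA2: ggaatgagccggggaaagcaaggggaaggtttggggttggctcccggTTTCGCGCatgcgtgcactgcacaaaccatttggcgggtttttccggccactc
PCNA: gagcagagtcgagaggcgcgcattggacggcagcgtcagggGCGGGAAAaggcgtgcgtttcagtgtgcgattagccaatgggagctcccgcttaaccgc
RFC3: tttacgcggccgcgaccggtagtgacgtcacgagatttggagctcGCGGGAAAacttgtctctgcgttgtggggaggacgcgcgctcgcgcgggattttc
TYMS: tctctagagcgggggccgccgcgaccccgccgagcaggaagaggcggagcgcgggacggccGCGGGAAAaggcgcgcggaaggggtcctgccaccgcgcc

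Genes with and without the letters overlapped in their response, with ranges in GFP vector cells of -2.45 to -0.25 for those with the letters and -2.50 to -0.14 for those without. The median log2 fold change in erlotinib was -0.75 in pre-miR-371 cells and -1.26 in GFP vector cells for the 18 with them, against -0.64 in pre-miR-371 cells and -1.02 in GFP vector cells for the 24 without. MCM10, CDC45 and RRM2 lacked the letters in this window, and ORC3 and LIG1 had them. A match is a description of the letters and not of binding.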

How the data were processed

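The authors deposited 1 log2 value per probe set for each of 12 arrays (4 groups of 3). Quantile normalization is named in the paper, and RMA and affy in the submitters' processing notes, with versions not given in the sources used here. Background correction, normalization and probe summary are thus already in the values, and normalization of this kind sets levels relative to the bulk of probe sets, so a shift of all RNA would not be seen. Arrays give no counting depth, and their number limits the precision.

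Of 54675 probe sets, 41097 had 1 gene symbol in the platform annotation, 1801 had several and 11777 none listed, among them 62 controls; only the first were used. Symbols of 19735 genes were updated or kept through Entrez identifiers. Fold changes on the log2 scale and their standard errors and p-values came from limma 3.58.1 under R 4.3.3 (1 mean per group, all 12 arrays, 8 residual and 3.57 prior degrees of freedom), with Benjamini-Hochberg adjustment over 19775 genes. The 5 comparisons were erlotinib against DMSO in each line, the difference of these responses, and the lines in each treatment. The fit was tested on simulated data. All 48 genes could be named, other replication genes by smallest p, up to 4 per comparison and direction, besides subunits that complete a complex; the genes with array values were chosen after their values were seen. The genes and lists were chosen with earlier results of these data known. Sequences and names are from RefSeq tables. Plots used matplotlib 3.10.9 (Python 3.11.15). Alternatives were other probe set rules, normalization, variance models, a minimum mean of 6, a replicate block, a Student's t-test, other limits and each array left out.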

Additional observations from a re-analysis of the deposited data

Results flagged for a closer look

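The 27 genes given here stood out because the erlotinib response differed between the lines by a test of the difference itself: the log2 fold change in pre-miR-371 cells minus that in GFP vector cells passed limma's test after adjustment over all genes. All 27 differences were positive. In origin licensing the difference was 0.80 for CDC6 and 0.39 for ORC6. In the helicase group it was 0.79 for CDC45, 0.77 for MCM10, 0.67 for GINS2, 0.67 for MCM6, 0.64 for GINS4, 0.48 for MCM5, 0.48 for GINS1, 0.46 for MCM3 and 0.39 for MCM2. Among polymerases it was 0.74 for POLE2, 0.59 for POLE, 0.49 for PRIM1 and 0.49 for POLA1. In clamp loading it was 0.57 for FEN1, 0.55 for PCNA, 0.40 for RFC4 and 0.36 for RFC5, and in nucleotide synthesis 0.60 for TYMS, 0.46 for RRM1, 0.45 for TK1 and 0.37 for RRM2. Of the other replication genes, 0.81 for CLSPN, 0.71 for MCM8, 0.55 for DONSON and 0.46 for RECQL4 are the 4 with the smallest p. The lowest adjusted p of the 27 was 0.00415 (CDC6) and the highest 0.0427 (RRM2). With 3 arrays per group, single arrays were not tested as outliers.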

How the results depend on the processing

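Counts of the 48 genes are given for pre-miR-371 cells in erlotinib (44 lower), GFP vector cells in erlotinib (47 lower), the difference of responses (23 positive), the lines in DMSO (4 lower) and the lines in erlotinib (34 higher). The first 2 stayed at 42 to 45 and 46 to 47 under every alternative except a fold over 1.5 (29 and 39). For the difference, 9 had a fold over 1.5, 36 passed with trend and robust variances and 39 at an unadjusted p, and 13 to 21 passed with 1 array left out. Over all 19775 genes, 284 were positive in the main fit and 690 with trend and robust variances. For the lines in DMSO, 0 passed with a fold over 1.5 or in a Student's t-test and 2 with only the groups compared. A minimum mean of 6 gave 9, trend and robust variances 10, array weights 12, an unadjusted p 13, and leaving out 1 array 2 to 6. Over all genes, 719 of 19775 were lower in the main fit, 1518 with trend and robust variances and 2257 with array weights. With a minimum mean of 6, 1639 of 9650 were lower, beside 9 of the 48. For the lines in erlotinib, 5 passed with a fold over 1.5 and 20 in the Student's t-test, and 26 to 33 with 1 array left out. Over all genes, 1286 were higher in the main fit and 521 in the Student's t-test. The causes were not tested.

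Of single genes, 1 value changed sign with a call: RRM2 between the lines in erlotinib was 0.15 (adjusted p = 0.045 by limma) with the mean of its probe sets. The replicate numbers were not taken to pair the arrays. Deviations correlated above 0.1 in 7 of 18 same-numbered pairs (-0.06 to 0.20, mean 0.049). They did so in 1 of 36 pairs of different numbers (mean -0.025). Deviations cancel out within a group, so the mean for different numbers is tied to that for same numbers and is not separate evidence. An array correlated best with its own number in 17 of 36 cases. Same-numbered arrays were thus somewhat more alike, which the main fit left out. The replicate block gave 44, 47, 23, 5 and 32. Repeated quantile normalization gave 44, 46, 27, 3 and 35, and centring on array medians 44, 47, 20, 3 and 28.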

Other observations

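Of the 48 genes, 26 had more than 1 probe set, which gave 44 further probe sets. Of these, 39 had a negative log2 fold change in erlotinib in pre-miR-371 cells and 42 in GFP vector cells. Among the 27 whose mean was 6 or more, 25 were lower in pre-miR-371 cells and 25 in GFP vector cells when every probe set was tested by limma on its own. The line comparisons gave fewer calls in these 27 than the responses: the difference of responses was positive in 7 and the lines in erlotinib were higher in pre-miR-371 cells in 9, against 18 and 28 of the 48 probe sets used, in the same test. Over all 44, the difference was above 0 in 39 and called in 9, and the line comparison in erlotinib was above 0 in 35 and called in 12.

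Probe sets of DUT ranged from -0.20 to -0.75 in pre-miR-371 cells and from -0.33 to -0.98 in GFP vector cells over 3 probe sets. The second probe set of CDC6 gave -1.69 in pre-miR-371 cells and -2.53 in GFP vector cells, and that of RFC3 with the next highest level gave -1.76 in pre-miR-371 cells and -2.22 in GFP vector cells.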
